A study of Mus musculus with 16 samples.

Results

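The nuclear genes of respiratory complexes II to V were followed in RNA-seq of mouse skeletal muscle. Members were the rows whose symbol starts with Sdha, Sdhb, Sdhc, Sdhd, Uqcr, Cox4, Cox5, Cox6, Cox7, Cox8 or Atp5, or is Cyc1 or Cycs. The rule left out 2 subunit genes and the 10 symbols that hold -ps. It gave 53 of the 55487 genes in the table. Of complex II there were 8, which are 4 subunits and the assembly factors Sdhaf1 to Sdhaf4. There were 8 of complex III, cytochrome c (Cycs) and 18 of complex V. The 18 of complex IV were 17 subunit rows and the assembly factor Cox7a2l. The muscle came from wild-type (WT) mice without training, WT mice after treadmill training, CHCHD4 Tg mice (Tg) without training and Tg mice after treadmill training, and each of these 4 groups has 4 libraries. The labels name neither the muscle, the strain, the age nor the promoter of the transgene. They do not say whether each library is a different mouse, so the spread behind a p-value may be technical. Chchd4, the targeted gene, stood at 7.90 ± 0.885 CPM (TMM-scaled counts-per-million, SD, n = 4) in WT libraries without and 8.14 ± 0.671 CPM with training, and at 20.3 ± 1.68 and 21.8 ± 0.306 CPM in the Tg ones.

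Electrons from food reach oxygen through a chain of protein complexes in the inner mitochondrial membrane. Complex II, succinate dehydrogenase, passes electrons from succinate to ubiquinone, complex III passes them on to cytochrome c, and complex IV, cytochrome c oxidase, hands them to oxygen. Complex III and complex IV pump protons, and complex V, the ATP synthase, lets protons flow back through a ring of c subunits to make ATP. All of complex II is encoded in the nucleus, whereas complexes III, IV and V mix nuclear subunits with a few encoded by mitochondrial DNA. CHCHD4 oxidises cysteines of proteins imported into the intermembrane space, among them small subunits and assembly factors of the chain. Endurance training is known to raise mitochondrial content in muscle.

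Library totals ran from 40888318 to 61703732 counts, and the members took 0.567% to 0.861% of them. Of the 53 rows, 49 passed the filter on low counts, which left 17490 genes tested in all. The 4 that did not pass were Cox6b2 (0 to 8 counts), Cox7b2 (0 to 1), Cox8c (0 in all libraries) and a second gene model of Atp5o (0 to 4). Fast-fibre myosin marked the tissue as muscle, with Myh4 at 24619 to 37431 CPM, while Myh7, the slow-fibre myosin, was at 1.16 to 64.3 CPM. WT untrained replicate 2 stood apart from the other libraries, with 4419 CPM summed over the members against 8197, 8304 and 8233 in the other 3 of its group. The median and the calls of each comparison are given with and without it. Less RNA of a gene per cell and fewer cells that carry it cannot be told apart in bulk muscle.

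Per length of transcript, the catalytic head of the ATP synthase led the set. Atp5b, the beta subunit, stood at 895 ± 92.2 TPM (read counts scaled for transcript length and depth, mean ± SD over 16 libraries) and Atp5a1, the alpha subunit, at 651 ± 78.9 TPM. Next came Cox6c at 507 ± 33.1 TPM, the c-ring gene Atp5g1 at 481 ± 70.1 TPM and Cox4i1 at 467 ± 44.5 TPM. Complex II was lower: Sdhb, its iron-sulfur subunit, stood at 231 ± 34.8 TPM, Sdha, its flavoprotein, at 200 ± 20.2 TPM and Sdhc, a membrane anchor, at 50.5 ± 5.19 TPM. Its assembly factors lay between 2.16 TPM (Sdhaf3) and 12.9 TPM (Sdhaf4). These TPM values used the shortest principal transcript of each gene, and they depend on that choice: with the longest one Atp5g1 was at 63.5 TPM.

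Several complex IV subunits exist as a muscle and a common isoform, encoded by separate genes, and in each pair the muscle gene held most of the transcripts. Cox6a2, the heart and muscle form of subunit 6A, made up 96.4% ± 0.382 (SD over 16 libraries) of Cox6a1 plus Cox6a2. Cox8b made up 93.1% ± 0.675 of Cox8a plus Cox8b. The share of Cox7a1 was 76.1% ± 1.63 of Cox7a1 plus Cox7a2, so of these 3 pairs the common form had its highest share in subunit 7A. Cox4i2, the lung isoform of subunit 4, made up 0.307% ± 0.0754 of Cox4i1 plus Cox4i2. The 3 c-ring genes encode the same mature c subunit, and Atp5g1, Atp5g2 and Atp5g3 held 53.9% ± 2.12, 17.9% ± 3.03 and 28.2% ± 1.44 of their sum. This order depends on the transcript taken for length: with the longest transcript of each gene Atp5g3 led with 61.3%, against 23.8% for Atp5g2 and 14.98% for Atp5g1.

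The start regions of the subunit 7A and 8 pairs are shown because their muscle and common genes differ in base composition, and those of Cox5a and Sdhaf4 because these members led the training comparison described further on. Each window runs from 250 bases before to 50 bases after the RefSeq start site (GRCm38.p6), 5′ to 3′ on the gene's strand. Capitals mark matches, on either strand, to 1 of 6 motifs: GCGC and TGCGC with 1 base of any kind between them for NRF1, CCGGAAG for ETS factors such as GABP, AAGATGG for YY1, AAGGTCA for estrogen-related receptors, GGGCGG for GC boxes, and CTA and TAG with 4 bases of any kind between them for MEF2.
Cox7a1 (muscle, chr7:30183921-30184220, plus strand): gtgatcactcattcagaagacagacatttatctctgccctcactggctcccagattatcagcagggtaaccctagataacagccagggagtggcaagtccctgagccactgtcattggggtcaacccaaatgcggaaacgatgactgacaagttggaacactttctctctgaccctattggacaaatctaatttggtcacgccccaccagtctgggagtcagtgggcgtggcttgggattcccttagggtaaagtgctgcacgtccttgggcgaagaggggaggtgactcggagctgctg
Cox7a2 (common, chr9:79759804-79760103, minus strand): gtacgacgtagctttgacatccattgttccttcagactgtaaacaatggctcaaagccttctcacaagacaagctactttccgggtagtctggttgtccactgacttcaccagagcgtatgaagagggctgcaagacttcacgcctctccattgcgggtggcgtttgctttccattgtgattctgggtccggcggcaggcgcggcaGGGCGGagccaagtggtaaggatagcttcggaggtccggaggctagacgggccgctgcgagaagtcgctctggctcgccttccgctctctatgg
Cox8b (muscle, chr7:140900397-140900696, minus strand): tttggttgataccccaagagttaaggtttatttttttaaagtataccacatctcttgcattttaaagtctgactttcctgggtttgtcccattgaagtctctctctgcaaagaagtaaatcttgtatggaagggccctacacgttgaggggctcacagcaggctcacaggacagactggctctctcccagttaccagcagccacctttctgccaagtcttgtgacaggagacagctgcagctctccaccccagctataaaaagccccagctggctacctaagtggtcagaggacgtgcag
Cox8a (common, chr19:7217567-7217866, minus strand): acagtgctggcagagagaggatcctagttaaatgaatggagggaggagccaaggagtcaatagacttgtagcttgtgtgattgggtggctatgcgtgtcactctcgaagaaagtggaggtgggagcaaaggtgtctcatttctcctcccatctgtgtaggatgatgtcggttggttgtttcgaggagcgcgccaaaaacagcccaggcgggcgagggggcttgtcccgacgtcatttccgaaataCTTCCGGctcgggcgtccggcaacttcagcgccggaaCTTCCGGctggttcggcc
Cox5a (chr9:57520982-57521281, plus strand): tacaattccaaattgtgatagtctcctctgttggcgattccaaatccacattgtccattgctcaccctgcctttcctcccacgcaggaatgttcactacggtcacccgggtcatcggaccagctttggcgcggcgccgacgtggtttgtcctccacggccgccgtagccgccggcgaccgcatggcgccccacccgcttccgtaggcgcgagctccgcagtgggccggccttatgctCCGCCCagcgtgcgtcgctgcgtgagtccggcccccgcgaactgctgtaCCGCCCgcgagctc
Sdhaf4 (chr1:24005591-24005890, minus strand): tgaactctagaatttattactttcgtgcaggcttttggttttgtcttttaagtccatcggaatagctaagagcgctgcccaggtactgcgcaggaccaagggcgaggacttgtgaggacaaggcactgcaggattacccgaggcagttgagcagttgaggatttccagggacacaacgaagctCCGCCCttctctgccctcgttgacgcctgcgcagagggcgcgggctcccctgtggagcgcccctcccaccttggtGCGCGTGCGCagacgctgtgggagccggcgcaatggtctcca

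The muscle windows hold fewer CG dinucleotides than the common ones of these 2 pairs, with 7 in Cox7a1 and 2 in Cox8b, against 20 in Cox7a2 and 19 in Cox8a. The median was 20 over the 39 of 52 member symbols with a window and 7 over 27025 gene symbols. Cox7a1 thus stood at the median of all genes. A low count was not particular to the muscle forms, as Cox7b, outside these pairs, held 5. Neither muscle window held a match to a motif searched. Cox8a held 2 ETS matches, Cox7a2 and Cox5a only GC boxes, and Sdhaf4 a GC box and an NRF1 match, and no matches overlapped in the 6 windows. Across the set, the NRF1 motif was found in 11 of 39 member windows (28.2%) against 4.78% of all windows, and the ETS motif in 13 (33.3%) against 9.12%. The estrogen-related receptor motif was in 5 (12.8% against 4.66%), the GC box in 19 (48.7% against 35.9%), YY1 in 3 (7.69% against 6.48%) and MEF2 in 1 (2.56% against 3.70%). A match describes these letters and is not a bound site.

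**Figure D1:**
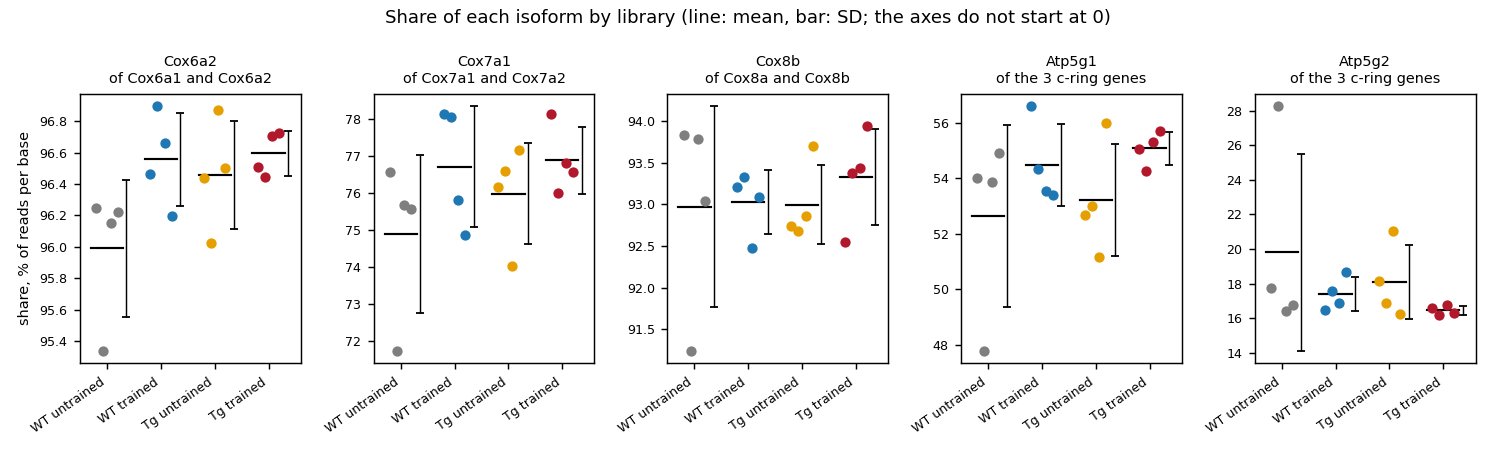
Share of the muscle isoforms Cox6a2, Cox7a1 and Cox8b in their pairs and of Atp5g1 and Atp5g2 among the 3 c-ring genes, in % after correction for the length of the shortest principal transcript (the order of the c-ring genes turns with the longest), for each of the 16 libraries by group (points), with the mean (line) and SD (bar). WT untrained replicate 2 is the lowest library for Cox6a2 (95.3%), Cox7a1 (71.7%), Cox8b (91.2%) and Atp5g1 (47.8%) and the highest for Atp5g2 (28.3%).

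The isoform shares moved little between groups, and all but that of Cox4i2 moved most in the library that stood apart. For Cox6a2 the WT untrained libraries (95.3% to 96.2%) lay below the Tg trained ones (96.4% to 96.7%). For Cox4i2, at most 1.01 CPM, the WT untrained libraries (0.243% to 0.327%) lay below the Tg untrained ones (0.350% to 0.410%). Cox7a1 held 76.6%, 71.7%, 75.7% and 75.6% in WT muscle without training and 78.1%, 76.0%, 76.8% and 76.6% in the Tg trained ones. The groups overlapped for Cox7a1, and WT untrained replicate 2 was the lowest of all 16. Atp5g2 held 17.7%, 28.3%, 16.4% and 16.8% of the c-ring sum in WT untrained libraries, 18.1%, 16.9%, 21.1% and 16.2% in Tg untrained libraries and 16.2% to 18.7% in the 8 trained ones. Both untrained libraries with the highest Atp5g2 share, WT replicate 2 and Tg replicate 3, were also those with the lowest level of the set. These are not separate observations, because Atp5g1 and Atp5g3 count in the c-ring sum and in that level. Against the mean of the other libraries of the group, Atp5g2 differed by -0.199 and 0.013 log2 units there. Atp5g1 differed by -1.12 and -0.370.

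**Figure D2:**
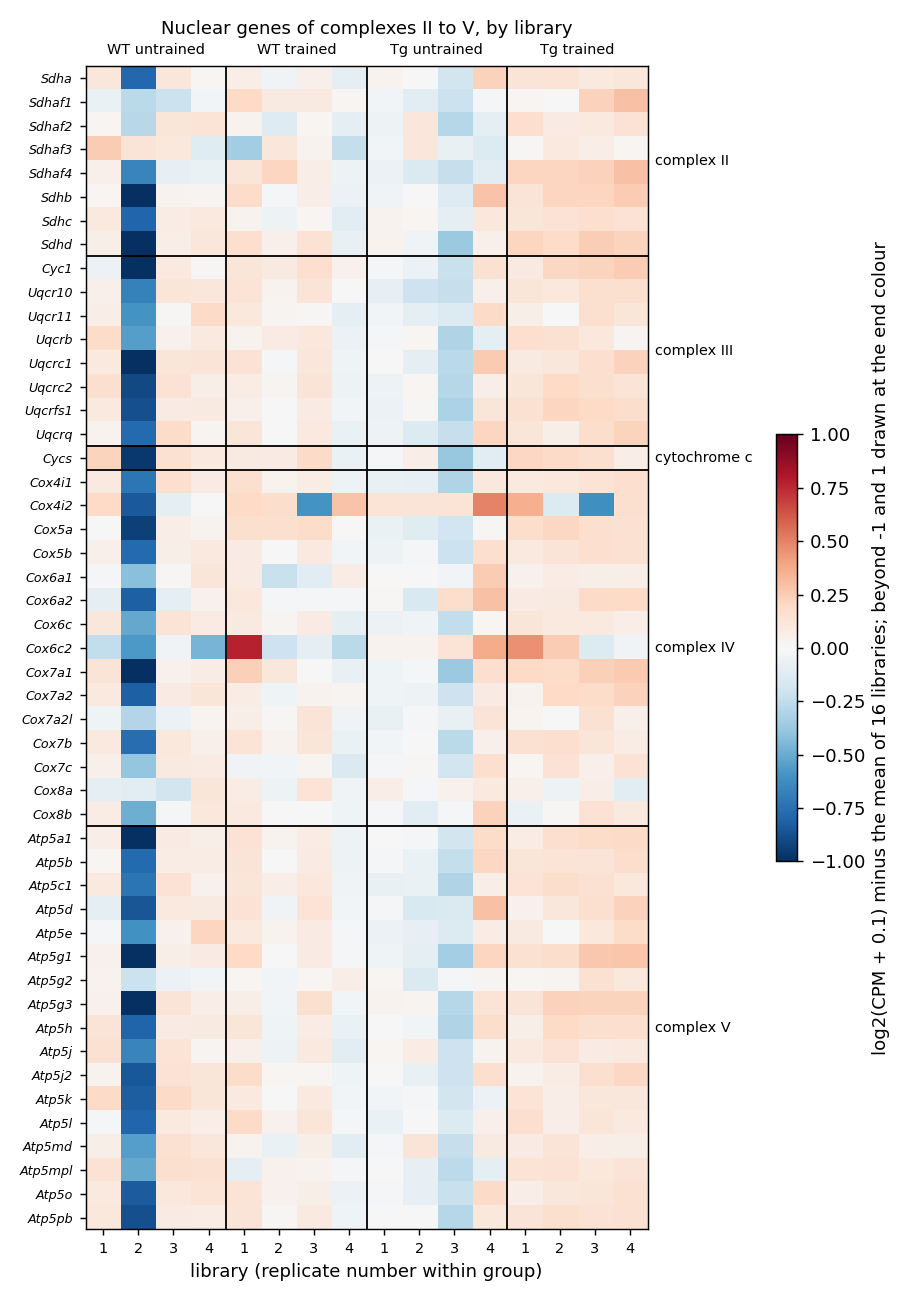
Heat map of the 49 tested members (rows, by complex) in the 16 libraries (columns, by group), as log2(CPM + 0.1) minus the mean of the gene over 16 libraries; blue is below that mean, red above it, and values beyond -1 and 1 take the end colour. WT untrained replicate 2 is blue in nearly every row, Tg untrained replicate 3 is pale blue in most, and the 4 Tg trained libraries are pale red in most.

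In WT untrained replicate 2, 48 of 49 members were below the mean of the other 3 libraries of the group, with a median log2 difference of -0.846. Of the 49, 40 were more than 0.5 log2 units lower, against 13.6% of the 7778 genes that average 5 CPM or more. Complex III had a median difference of -0.915 and a range from -1.18 to -0.659, and complex V a median of -0.889. Complex II (median -0.754) and complex IV (median -0.774) had ranges from -1.20 to 0.04 and from -1.23 to -0.07. The members that differed least were Sdhaf3, the assembly factor for the iron-sulfur subunit of complex II, at 0.04, Cox8a, the common isoform of subunit 8, at -0.07, Sdhaf1 at -0.17 and Atp5g2 of complex V at -0.20. At the other end, Cox7a1 differed by -1.23 log2 units (52.2 CPM against 127, 119 and 122). Sdhb was at 77.6 CPM against 178, 179.8 and 179, and Atp5g3 at 55.2 CPM against 124, 131 and 126.

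Fibre, regulator and other marker genes moved in the same library. Myh1 was at 3297 CPM there against 9087 to 10810 in the other 3, Myh2 at 127 CPM against 452 to 613, and Myh7 at 11.2 CPM against 2.12 to 2.38. Of 10 fast-fibre markers 9 were below the other 3 libraries and Actn3 was above them (3089.9 CPM against 2584 to 2771). Of 8 slow-fibre markers 4 were above the other 3 and 2 below, among them Myl3 (6.22 CPM against 18.4 to 34.9), and their sum of 68.95 CPM was within the range of the group (61.8 to 82.4 CPM). Esrra, the estrogen-related receptor that drives respiratory genes, was at 19.1 CPM against 38.1 to 46.4, and Ppargc1a, its coactivator, at 17.6 CPM against 31.0 to 35.3. Nrf1, a factor of respiratory promoters, was at 7.32 CPM against 6.74 to 7.11. Alb, the liver marker, was at 14.9 CPM in this library and above 10 CPM also in WT trained replicate 4 and Tg untrained replicate 2. Other markers of WT untrained replicate 2 were set against the other 3 libraries of its group. Above them were 7 of 7 macrophage, 6 of 7 adipocyte and 2 of 4 tendon markers, with 0 below in each list. All 3 endothelial and all 4 erythroid markers were below them. Of 5 fibroblast markers 2 were above and 2 below. The part of all these in the low level of the set was not tested. Tg untrained replicate 3 was the second lowest library: 47 of 49 members were below the mean of the other 3 of its group, with a median log2 difference of -0.247. There 2 of 8 slow-fibre markers were above the other 3 libraries and 1 below. Of 10 fast-fibre markers 1 was above and 1 below. Myh7 was at 42.1 CPM there and 64.3 CPM in replicate 2 of the group, against 1.91 and 3.13 CPM in replicates 1 and 4. All 4 tendon markers were above the other 3 libraries, and all 3 endothelial ones below. Of 5 fibroblast markers 2 were above and 0 below, of 7 macrophage markers 1 and 0, and of 7 adipocyte markers 0 and 1. The part of these in the level of this library was not tested.

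**Figure D3:**
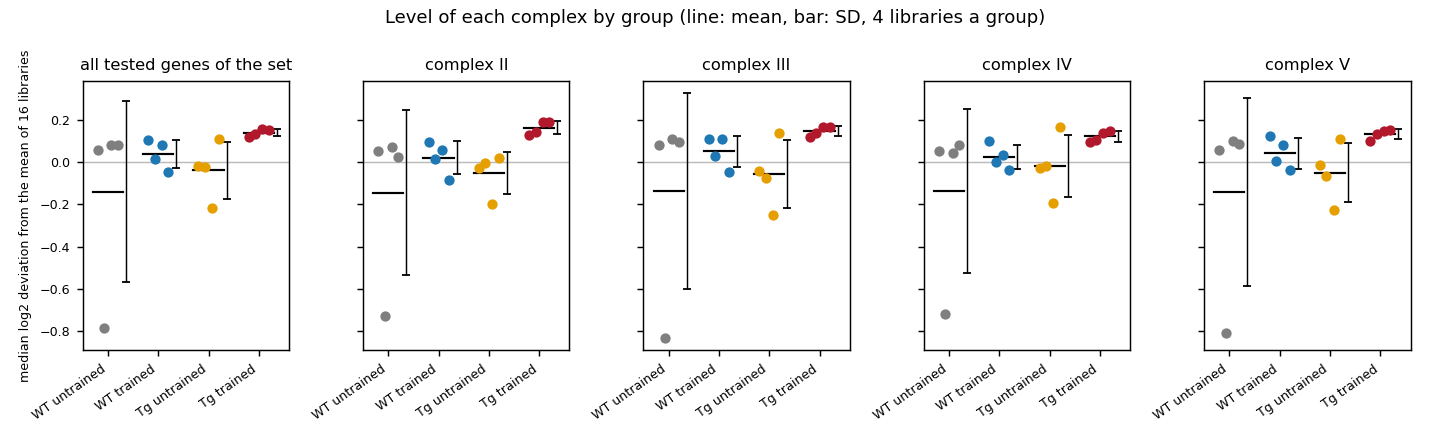
Level of the 49 tested members and of each complex in the 16 libraries (points) by group, as the median over genes of the log2 CPM minus the gene's mean over 16 libraries, with the group mean (line) and SD (bar). The 4 Tg trained libraries lie between 0.118 and 0.156 for the 49 members, above the 12 others, and WT untrained replicate 2 lies at -0.782.

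The level of a complex was taken as the median over its tested members of log2 CPM minus the gene's mean over the 16 libraries. For the 49 members it was 0.06, -0.78, 0.08 and 0.08 in the WT untrained libraries and 0.10, 0.01, 0.08 and -0.05 in the WT trained ones. In the Tg untrained libraries it was -0.02, -0.02, -0.22 and 0.11, and in the Tg trained ones 0.12, 0.13, 0.16 and 0.15. For the 49 members the Tg trained libraries were the highest 4 of 16, also with median-ratio scaling (RLE) or without mitochondrially encoded genes, and they were close together (SD 0.0169 against 0.0675 in WT trained and 0.135 in Tg untrained). The other 3 groups overlapped one another. By complex, the Tg trained mean was 0.16 ± 0.0310 (SD, n = 4) for complex II, 0.15 ± 0.0235 for complex III, 0.12 ± 0.0244 for complex IV and 0.13 ± 0.0237 for complex V. The Tg trained libraries were the highest 4 of 16 for complex II (0.130 to 0.190), and not for the others. The level of complex II is a median over 4 subunits and 4 assembly factors, and its subunits alone were not compared. In complex III Tg untrained replicate 4 (0.139) was above the lowest Tg trained library (0.118), in complex IV it was above all 4 (0.164 against at most 0.146), and in complex V it (0.108) and WT trained replicate 1 (0.123) were above the lowest (0.0984). In the Tg untrained group it was -0.05 for complex II (-0.20 to 0.02 over 4 libraries), -0.06 ± 0.159 for complex III, -0.02 ± 0.145 for complex IV and -0.05 ± 0.138 for complex V.

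Single genes followed the same order of libraries to different degrees. Over the 15 libraries without WT untrained replicate 2, the correlation of a member with the median of the others had a median of 0.83, as a description of libraries that share depth and scaling. It was highest for Atp5pb, a peripheral stalk subunit of complex V (0.98), and lowest for Cox4i2 (-0.26), Cox8a (-0.01), Sdhaf3 (0.10), Cox6c2 (0.14) and Cox6a2 (0.20). Cox6a2 is the main form of subunit 6A here, and it went its own way in Tg untrained replicate 3, at 232 CPM against 207, 185 and 251 CPM in the other Tg untrained libraries.

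In WT muscle the sign of the training comparison rested on 1 library. No member passed the test in edgeR's quasi-likelihood model (0 of 49, against 0.143% of all tested genes at an adjusted p under 0.05). An unadjusted p under 0.05 was seen in 2 of 49, against 1669 of 17490 genes. The median log2 fold change was 0.131, against 0.005 over all tested genes, and 45 of 49 members were positive. The smallest p belonged to Sdhaf1, an assembly factor for the iron-sulfur subunit of complex II, at 4.95, 4.28, 4.46 and 5.08 CPM in untrained and 5.97, 5.51, 5.53 and 5.24 CPM in trained libraries. Its log2 fold change was 0.25 (SE 0.0867, edgeR adjusted p = 0.412). It was the only member whose trained libraries all lay above the untrained ones (1 of 49, against 2.36% of genes higher and 2.02% lower). Sdhaf4, which helps the flavoprotein join complex II, followed at 0.26 (SE 0.116, adjusted p = 0.499). Cox6c2 had a log2 fold change of 0.51 (SE 0.246, edgeR adjusted p = 0.532). The value was 0.153 without WT trained replicate 1, which was at 1.60 CPM against 0.728 to 0.838 CPM in the other WT trained libraries. Cox6c2 is annotated as a processed pseudogene, so reads may be shared with its parent gene and its counts are uncertain. Without WT untrained replicate 2 the median turned to -0.042, 35 of 49 members were negative, and again 0 passed (against 0.137% of genes). The trained libraries of 5 members then lay below all untrained ones (Atp5k, Atp5mpl, Cox7a2, Cox7c and Sdhc, against 3.96% of genes), and those of Sdhaf1 above (against 4.75%). The log2 fold change was then 0.20 for Sdhaf1, 0.12 for Sdhaf4 and 0.42 for Cox6c2.

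In Tg muscle most members had higher values after training, and none passed the test with all libraries. Of 49 members 0 passed (0% of all tested genes did), and 3 had an unadjusted p under 0.05, against 1938 of 17490 genes. The median log2 fold change was 0.167 against 0.002 over all genes, and 45 of 49 members were positive. Sdhaf4 had the smallest p: it was at 5.70, 5.34, 5.05 and 5.47 CPM before and 6.91, 6.91, 6.97 and 7.28 CPM after training. The 2 groups did not overlap, and the log2 fold change was 0.38 (SE 0.114, edgeR adjusted p = 0.240). Sdhaf1 followed at 0.23 (SE 0.0858, adjusted p = 0.335) and Sdhaf2, which attaches flavin to Sdha, at 0.20 (SE 0.0902, adjusted p = 0.439). All 8 members of complex II, all 8 of complex III, Cycs and all 17 tested members of complex V were positive, against 11 of 15 of complex IV. The median was 0.21 in complex III, 0.18 in complex II, 0.15 in complex V and 0.09 in complex IV. In complex IV the isoform genes Cox6a1 (0.00), Cox8a (-0.05), Cox8b (0.02) and Cox6a2 (0.05) were near 0 and Cox4i2 was at -0.29. The complexes are unlike sets, as complex II counts 4 assembly factors that average 5.21 to 19.6 CPM. Complex IV counts the assembly factor Cox7a2l, the pseudogene Cox6c2 and Cox4i2 (0.707 CPM on average), whereas complexes III and V hold subunits only.

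The libraries of the Tg groups did not overlap for 18 of 49 members, all higher after training, against 4.65% of genes higher and 4.52% lower. From complex II these were Sdhc, Sdhd, Sdhaf1 and Sdhaf4, from complex III Uqcrc2, Uqcrfs1, Uqcrb and Uqcr10, from complex IV Cox5a, Cox6c, Cox7a1 and Cox7b, and from complex V Atp5c1, Atp5j, Atp5k, Atp5l, Atp5mpl and Atp5pb. Leaving out Tg untrained replicate 3 can only add genes to such a list, so it does not test these 18. It added no member (against 5.98% of genes higher and 5.77% lower). Slow-fibre and adipocyte markers moved between the same libraries, and their part in these values was not tested. The 8 slow-fibre markers summed to 66.3, 199, 169 and 71.0 CPM before and 70.0 to 96.5 CPM after training. Their median log2 fold change was -1.55, with 7 lower and 1 higher. All 8 had an unadjusted edgeR p under 0.05, and 0 passed, as over all tested genes. The high sums were those of Tg untrained replicates 2 and 3. The 7 adipocyte markers summed to 86.7 to 128 CPM before and 61.6 to 76.4 CPM after training (median -2.37, 0 passing). All 7 were lower with an unadjusted edgeR p under 0.05, which was seen in 3 of 49 members. Uqcrfs1, the Rieske iron-sulfur protein of complex III, was at 152, 160.0, 127 and 173 CPM without and 176, 184, 182 and 179 CPM with training. Its lowest trained library was above its highest untrained one, with a log2 fold change of 0.23 (SE 0.157, adjusted p = 0.631). Cox5a, a matrix-side subunit of complex IV, was at 129.9, 126, 119 and 137 CPM without and at 154, 158, 153 and 151 CPM with training. Its log2 fold change was 0.27 (SE 0.150, adjusted p = 0.545).

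The spread that the test used came partly from the library that stood apart. Without WT untrained replicate 2, which is in neither Tg group, the median log2 fold change of training in Tg stayed at 0.164. The median SE of the members dropped from 0.142 to 0.0671. An unadjusted p under 0.05 was then seen in 32 of 49 members, against 2778 of 17490 genes. Then 2 of 49 members passed, against 0.532% of genes: Sdhaf4 rose by 0.38 on the log2 scale (SE 0.0661, edgeR adjusted p = 0.039) and Cox5a by 0.26 (SE 0.0494, adjusted p = 0.0413). Atp5mpl, a small proteolipid of the ATP synthase, had 0.23 (adjusted p = 0.0511) and Uqcr10 0.24 (adjusted p = 0.0583). Without Tg untrained replicate 3 instead, the median was 0.104 and 0 of 49 passed. Without both libraries 0 passed as well, with a lowest edgeR adjusted p of 0.1002 (0% of genes passed).

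**Figure D4:**
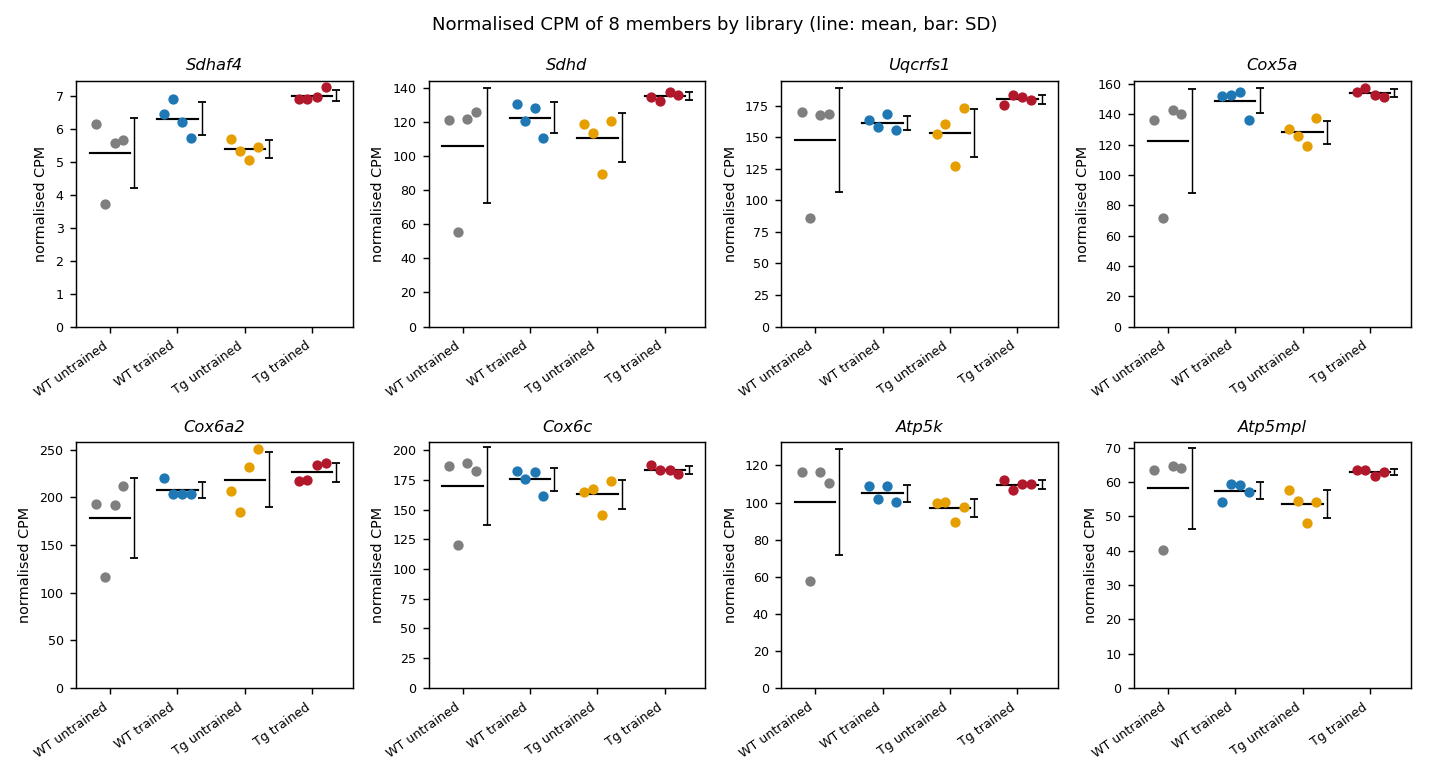
Normalised CPM of 8 members in the 16 libraries (points) by group, with the mean (line) and SD (bar) and each axis starting at 0. For Sdhd and Uqcrfs1 all 4 Tg trained libraries lie above the 12 others, as they do by a narrow margin for Sdhaf4 (lost when mitochondrially encoded genes are removed before scaling), and WT untrained replicate 2 is the lowest library in each panel.

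Before training no member differed between Tg and WT at the threshold with all libraries. Of 49 members 0 passed (against 0.743% of genes), and 2 had an unadjusted p under 0.05, against 2825 of 17490 genes. The median log2 difference, Tg minus WT, was 0.053 against 0.004 over all genes. Cox6c2 had a difference of 0.53 (SE 0.243, edgeR adjusted p = 0.297), and it was the 1 member whose groups did not overlap (against 4.33% of genes higher and 4.18% lower). Cox6a2, the muscle isoform of subunit 6A, was at 193, 116, 192 and 212 CPM in WT and 207, 185, 232 and 251 CPM in Tg muscle. The groups overlapped, and the difference was 0.29 (SE 0.139, adjusted p = 0.309). Cox4i2 had 0.43 (SE 0.275, adjusted p = 0.476), at levels of at most 1.01 CPM. Without WT untrained replicate 2 these differences were 0.44 for Cox6c2, 0.14 for Cox6a2 and 0.22 for Cox4i2. Fibre markers moved between the same libraries: 7 of 8 slow-fibre markers were higher in Tg (median 1.67 log2 units). Of the 8, 6 had an unadjusted p under 0.05 and 0 passed (lowest edgeR adjusted p = 0.0541). Their summed level was 66.3, 199, 169 and 71.0 CPM in the Tg libraries, against 61.8 to 82.4 CPM in WT. Only Tg untrained replicates 2 and 3 thus lay above the WT range. Myh2, the fast oxidative myosin, was at 127 to 613 CPM in WT and 786 to 1708 CPM in Tg muscle (adjusted p = 0.0698). Their part in the members' values was not tested.

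Without WT untrained replicate 2 the sign turned: 41 of 49 members were lower in Tg untrained muscle and the median was -0.115. Then 2 of 49 passed, against 0.698% of genes, both of complex V. Atp5k, subunit e of the membrane part, was at 116, 57.4, 116 and 111 CPM in WT and 99.9, 100.4, 89.7 and 97.8 CPM in Tg muscle, with a log2 difference of -0.24 once replicate 2 was left out (SE 0.0495, edgeR adjusted p = 0.0377). Atp5mpl was at 63.6, 40.3, 64.5 and 64.1 CPM in WT and 57.8, 54.3, 48.2 and 54.2 CPM in Tg muscle, with -0.26 (SE 0.0536, adjusted p = 0.0387). All 3 remaining WT libraries lay above all 4 Tg libraries for 7 members (Atp5k, Atp5mpl, Cox6c, Cox7b, Cycs, Sdhd and Uqcrb, against 7.39% of genes lower and 6.81% higher). With Tg untrained replicate 3 left out as well, 0 passed (adjusted p = 0.0764 for Atp5k and 0.0663 for Atp5mpl, against 0.417% of genes passing) and the median was -0.056.

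After training, 47 of 49 members were higher in Tg than in WT, by a median of 0.098 log2 units against -0.003 over all genes. None passed (0 of 49, against 0.0114% of genes), and 0 had an unadjusted p under 0.05 (against 1393 of 17490 genes). The smallest p values were those of Sdhaf2 (0.16, SE 0.0904, edgeR adjusted p = 0.697), Sdhaf3 (0.15, SE 0.102, adjusted p = 0.788) and Cox7c (0.13, SE 0.0964, adjusted p = 0.805). All Tg trained libraries lay above all WT trained ones for 8 members, against 2.94% of genes higher and 2.76% lower: Sdha, Sdhc, Sdhd, Sdhaf2 and Sdhaf4 of complex II, Uqcrfs1 of complex III, and Atp5md and Atp5mpl of complex V. The count was 11 with RLE scaling, against 3.16% of genes higher and 2.71% lower. Sdhd, a quinone-binding membrane anchor of complex II, was at 131, 121, 128 and 110.4 CPM in WT and 135, 132, 138 and 136 CPM in Tg muscle. The Tg trained libraries also lay above all 12 others for Sdhd, Sdhc, Sdhaf4 and Uqcrfs1 (4 of 49 members, against 0.343% of genes). With RLE scaling Atp5pb joined these 4 (against 0.389% of genes), and without mitochondrially encoded genes Atp5pb took the place of Sdhaf4 (against 0.383% of genes). The 7 macrophage markers were lower in the same Tg libraries, by a median of -1.09 log2 units, with a summed level of 14.2 to 20.2 CPM against 13.0 to 46.2 in WT. Of these, 5 had an unadjusted p under 0.05 and 0 passed (lowest edgeR adjusted p = 0.287), and their part in the members' values was not tested. WT untrained replicate 2 is in neither of these groups but adds to the spread of the model. Without it 9 of 49 members had an unadjusted p under 0.05, against 2006 of 17490 genes. Again 0 passed (against 0.0629% of genes).

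**Figure D5:**
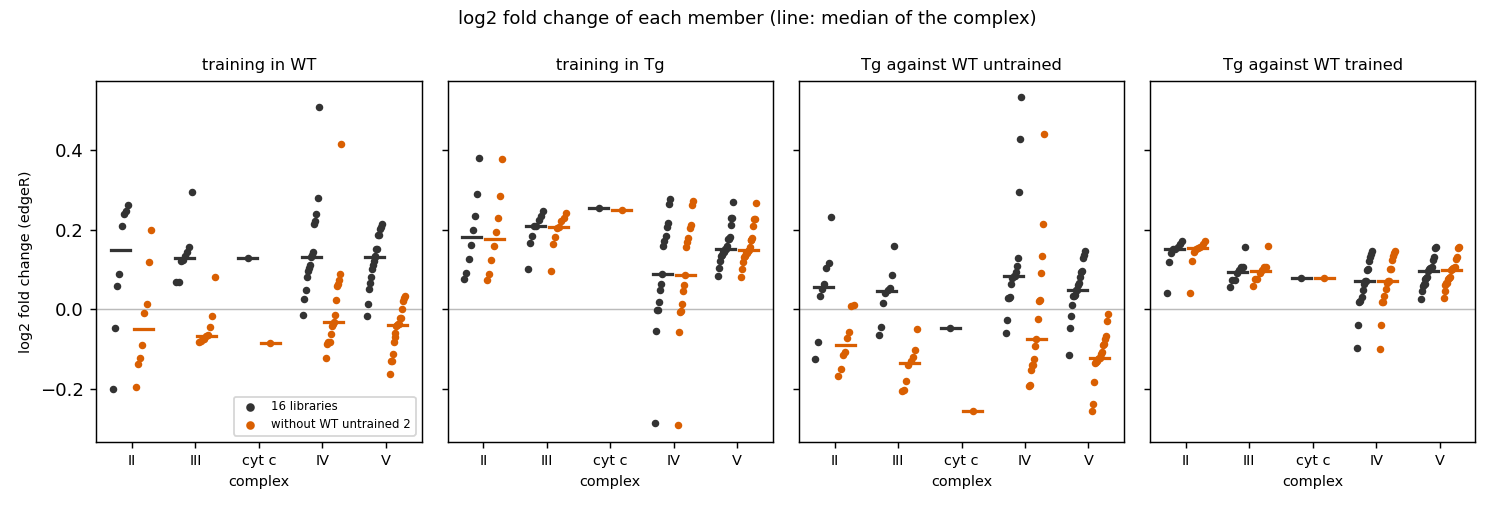
log2 fold change of each tested member (points) by complex, with the median of the complex (line), in 4 comparisons, with all 16 libraries (black) and without WT untrained replicate 2 (orange). The 2 comparisons that contain the WT untrained group move from mostly above to mostly below 0, and the medians of training in Tg (0.167 and 0.164 over 49 members) and of Tg against WT after training (0.098 and 0.0998) stay.

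The training response was then compared between genotypes. The difference of the 2 responses, Tg minus WT, had a median of 0.033 over the members, against -0.009 over all genes. Of 49 members 0 passed (against 0.0515% of genes), and 0 had an unadjusted p under 0.05 (against 1053 of 17490 genes). The smallest p values belonged to Sdhaf3 (0.28, SE 0.144, edgeR adjusted p = 0.831), Sdhaf2 (0.25, SE 0.128, adjusted p = 0.831) and Atp5mpl (0.25, SE 0.159, adjusted p = 0.878). Among members that average 5 CPM or more, the largest positive values by complex were those of Sdhaf3 (II), Uqcrb (III, 0.14), Cox6c (IV, 0.12) and Atp5mpl (V). The largest negative ones were Sdhb (-0.08), Cyc1, the cytochrome c1 of complex III (-0.07), Cox6a2 (-0.17) and Atp5d (-0.07). Without WT untrained replicate 2 the median was 0.212 and 44 of 49 members were positive, Sdhb, Cyc1 and Atp5d among them. An unadjusted p under 0.05 was then seen in 26 of 49, against 1583 of 17490 genes. Still 0 passed (lowest edgeR adjusted p = 0.0855, Atp5mpl, against 0.0572% of genes passing). The difference was then 0.27 for Sdhaf3, 0.33 for Sdhaf2, 0.39 for Atp5mpl, 0.28 for Uqcrb, 0.26 for Cox6c and -0.01 for Cox6a2. Without any 1 of the other 3 WT untrained libraries, or without Tg untrained replicate 3, the median was below 0 (-0.0311 to -0.00403). Slow-fibre markers moved in the same comparison with all libraries, with a median of -2.64 log2 units over 8 (1 higher and 7 lower). Of the 8, 7 had an unadjusted p under 0.05 and 0 passed (lowest edgeR adjusted p = 0.542). Their part in the members' values was not tested.

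With both genotypes averaged, training gave the lowest p values of the set. The median was 0.156 and 47 of 49 members were positive. Of the 49, 5 had an unadjusted p under 0.05, against 2526 of 17490 genes, and 0 passed (against 0.457% of genes). Sdhaf4 had 0.32 (SE 0.0814, edgeR adjusted p = 0.0935), Sdhaf1 0.24 (SE 0.0610, adjusted p = 0.0943) and Cox5a 0.27 (SE 0.106, adjusted p = 0.260). In DESeq2, Sdhaf4 and Sdhaf1 passed (adjusted p = 0.0225 and 0.0414, against 2.1% of genes called), and in edgeR without WT untrained replicate 2, Sdhaf4 (0.25, SE 0.0490, adjusted p = 0.0253) and Cox5a (0.17, SE 0.0364, adjusted p = 0.0292) passed, against 1.25% of genes, with a median of 0.0635 over the members. Both passed too without this library and Tg untrained replicate 3 together (adjusted p = 0.0453 and 0.0487, against 0.863% of genes). Sdhaf4 also passed without WT trained replicate 4 (edgeR adjusted p = 0.046, against 2.21% of genes). Adipocyte markers moved in the same comparison, with 5 of 7 lower after training at an adjusted p under 0.05 and a summed level in WT of 73.0 to 118 CPM before and 71.1 to 75.8 CPM after training. Their part in the members' values was not tested.

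Averaged over training, Tg minus WT was positive in 49 of 49 members, with a median of 0.070, and 0 passed (against 1.12% of genes). Cox6a2 (0.21, SE 0.0980, edgeR adjusted p = 0.290), Cox6c2 (0.28, SE 0.170, adjusted p = 0.428) and Cox6a1 (0.11, SE 0.0743, adjusted p = 0.458) had the smallest p values. The shared sign rested on WT untrained replicate 2: without it 24 members were positive and 25 negative, and the median was -0.0011 (0 passed, against 2.01% of genes). Then Cox6a2 had 0.13, Cox6c2 0.23 and Cox6a1 0.06. Myh2 rose in the same average, the 1 of 10 fast-fibre markers that passed, from 127 to 697 CPM in WT to 786 to 1898 CPM in Tg libraries; its part in the members' values was not tested. Of 8 slow-fibre markers 0 passed. All 7 macrophage markers were lower in Tg (median -0.73, lowest adjusted p = 0.0550, 0 passing).

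For the core members, all 4 groups could be set side by side. Atp5b was at 1067 ± 264 CPM (SD, n = 4) in WT muscle without training and 1185 ± 65.0 CPM with it, and at 1138 ± 146 and 1271 ± 22.4 CPM in Tg muscle. Training gave log2 fold changes of 0.15 (SE 0.148) in WT and 0.16 (SE 0.148) in Tg for Atp5b. Cyc1 had 0.30 (SE 0.174) and 0.22 (SE 0.174), and Uqcrc2, a core subunit of complex III, 0.12 (SE 0.163) and 0.21 (SE 0.163). Sdha had 0.09 in both genotypes (SE 0.147), Cox4i1 0.11 (SE 0.142) and 0.21 (SE 0.142), and Cox5b, a zinc-binding subunit of complex IV, 0.14 (SE 0.140) and 0.16 (SE 0.140). Without WT untrained replicate 2 the values for WT were -0.02 for Atp5b, 0.08 for Cyc1, -0.08 for Uqcrc2, -0.09 for Sdha, -0.06 for Cox4i1 and -0.04 for Cox5b (edgeR adjusted p between 0.762 and 0.961). With all libraries the adjusted p of these 6 lay between 0.612 and 0.877 in edgeR over both genotypes, and a p that misses the threshold does not show that the groups are alike.

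Genes that work with the members gave no calls either. Of the assembly factors, 6 of complex III, 22 of complex IV and 4 of complex V were tested, and 0 passed in any of the 7 comparisons. Their medians for training in Tg were 0.15, 0.15 and 0.17 log2 units, close to that of the members. The 6 mitochondrially encoded subunits of complexes III to V and the 10 regulators (Ppargc1a, Ppargc1b, Pprc1, Esrra, Nrf1, Gabpa, Gabpb1, Tfam, Yy1 and Ppara) had 0 calls as well. For training in Tg the median of the regulators was 0.00. That of the mitochondrially encoded subunits was 0.279, with 5 higher, 1 lower and 2 at an unadjusted edgeR p under 0.05. Among mitochondrial subunits mt-Co1 was at 14459 CPM in WT untrained replicate 2 and 24077 to 27566 CPM in the others of its group, and mt-Co3 was at 5788 CPM in WT trained replicate 1 against 203 to 761 CPM in the other 15 libraries. Esrra was at 37.0 to 49.4 CPM before and 43.1 to 49.96 CPM after training in Tg muscle, so the groups overlapped.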

How the data were processed

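RNA was measured in 16 skeletal muscle libraries, 4 per group by the labels' titles. Per the submitters' processing notes, STAR 2.7.8a, RSEM 1.3.2 and mm10 were used; the deposited values are RSEM expected counts per gene, not normalized (12.48% not whole), which were rounded. RSEM divides reads among similar genes. Counts were scaled with TMM (factors 0.924 to 1.28) and filtered with filterByExpr, and all libraries entered 1 edgeR 4.0.16 quasi-likelihood model (R 4.3.3) with 7 contrasts and Benjamini-Hochberg adjustment over 17490 genes, with a call at an adjusted p under 0.05. The biological coefficient of variation was 14.14%. DESeq2 1.42.0, limma-voom 3.58.1, other scalings and filters and left-out libraries were alternatives. Scripts were tested on simulated data. Lengths and positions came from GENCODE M21. No pair of replicates agreed within sampling noise (lowest chi-square per degree of freedom 7.28).

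Members and lists were chosen with earlier results of these data known. Named were, in each contrast, called members or else the 3 of smallest p, 6 core members, the tissue isoforms, and per complex the extremes of the difference of responses; other members named were chosen after their values were seen.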

Additional observations from a re-analysis of the deposited data

Results flagged for a closer look

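Gaps within groups of 4 were checked for 160 group values (levels, isoform shares and CPM of named members), of which chance would mark about 1 in 20. A library lay far from the other 3 in 30, and 22 of these were WT untrained replicate 2. There the level was -0.782 for the members, -0.728 for complex II, -0.83 for complex III, -0.719 for complex IV and -0.805 for complex V. The shares of Cox6a2 (95.3%), Atp5g1 (47.8%) and Atp5g2 (28.3%) lay apart too. So did, in CPM, Atp5b (671), Atp5g1 (92.1), Atp5g3 (55.2), Atp5mpl (40.3), Cox4i1 (142), Cox5a (71.4), Cox5b (91.8), Cox6c (121), Cox7a1 (52.2), Cox7a2 (34.5), Cox7c (78.2), Sdha (226), Sdhb (77.6) and Uqcrc2 (103), each below the other 3 libraries.

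In WT trained libraries Cox6a2 (221 CPM) and Cox6c2 (1.60 CPM) were high in replicate 1, Cox4i2 was low in replicate 3 (0.419 CPM) and Cox5a low in replicate 4 (136 CPM). In Tg untrained replicate 4, Cox4i2 (1.01 CPM) and Cox6a1 (7.65 CPM) were high. In the Tg trained group Atp5g3 was low in replicate 1 (131 CPM) and Sdhaf4 high in replicate 4 (7.28 CPM).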

How the results depend on the processing

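No member was called in any of the 7 comparisons under RLE scaling, limma-voom, robust dispersions, other filters and removal of mitochondrially encoded genes. DESeq2 called 2 for training averaged. Without the 3 libraries above 10 CPM of Alb, the counts were 2 for training in Tg (against 0.595% of genes), 1 for Tg against WT untrained (0.589%) and 2 for training averaged (3.31%); with only the 8 libraries compared, training in Tg gave 1 (0.703%), and without WT untrained replicate 2 and Tg untrained replicate 3 together, an alternative chosen after seeing the data like the longest transcript, training averaged gave 2 (0.863%). Over all genes DESeq2 called 68, 132, 442, 55, 37, 367 and 640 in the order of the comparisons above, against 25, 0, 130, 2, 9, 80 and 196 in edgeR. Leaving out 1 library at a time gave 0 to 2 called members for training in Tg, Tg against WT untrained and training averaged (0.532%, 0.698% and 1.25% of genes where 2 were called), and 0 for the others; the median of the difference fell below 0 without WT untrained replicate 1 (-0.0134), 3 (-0.00403) or 4 (-0.0311) or Tg untrained replicate 3 (-0.0282).

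The median for training in WT turned to -0.057 without the 4 libraries above 10 CPM of Myh7, -0.018 without those of Alb and -0.0415 without both low libraries; that for Tg against WT untrained turned to -0.023, -0.105 and -0.0556, and that for Tg averaged to -0.017 without those of Alb. All these leave out WT untrained replicate 2. Leaving out 1 library gave medians from -0.0415 to 0.203 for training in WT, 0.104 to 0.213 in Tg, -0.115 to 0.125 for Tg against WT untrained, 0.0701 to 0.114 for trained, -0.0311 to 0.212 for the difference, 0.0635 to 0.189 for training averaged and -0.0011 to 0.107 for Tg averaged. In the difference of responses, in the order without Myh7, Alb and both low libraries, Sdhb turned to 0.0607, 0.101 and 0.0952, Cyc1 to 0.0616, 0.112 and 0.0815 and Atp5d to 0.0011, 0.0381 and 0.0643, and Cox6a2 to 0.0191 in the last. By library, Sdhb ranged from -0.161 to 0.146, Cyc1 from -0.18 to 0.141 and Atp5d from -0.157 to 0.111.

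Without length correction the share was 97.0% for Cox6a2, 65.5% for Cox7a1, 89.8% for Cox8b, 13.2% for Atp5g2 and 33.5% for Atp5g3; with the longest transcript Atp5g1, Atp5g2 and Atp5g3 held 14.98%, 23.8% and 61.3%.

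Correlations between the deviations of same-numbered libraries ran from -0.349 to 0.354. The best partner had the same number for 1 or 2 of 4 libraries in each comparison. These values do not settle whether the numbers pair libraries, and the main model took them as unpaired. A replicate block gave 0 called members in each comparison, and medians of 0.149 for training in WT, 0.172 in Tg, 0.0729 for Tg against WT untrained, 0.0988 for trained, 0.0229 for the difference, 0.168 and 0.0789 for the averages; it changed no call of a member. Genes called over the whole table were 66 with the block against 130 for Tg against WT untrained and 16 against 80 for training averaged.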
